A study of Homo sapiens with 3 samples.

Results

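The kinetochore is the protein assembly that joins each chromosome to the spindle, and the 41 genes described here encode its parts and the checkpoint that watches over it. Members were all RefSeq protein-coding symbols made of CENP and 1 letter, plus 21 named genes of the outer kinetochore, the spindle checkpoint, the RZZ complex and the SKA complex, among 19974 protein-coding genes on chromosomes 1 to 22 and X. MYC binding was measured by ChIP-Rx in parental U2OS cells, which derive from a human osteosarcoma, with 2 MYC immunoprecipitations and 1 input library, all prepared with 10% mouse NIH3T3 cells added before shearing as a reference. The data are 1 peak list of 9818 peaks without values per library, so no value below has a replicate error, the depth is unknown, and the 1 cell line has no untreated, MYC-depleted or other comparison group. A peak was assigned to a gene where its summit lay inside the gene or within 5000 bp of it, and genes without a peak stayed in the set.

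Centromeric chromatin carries the histone variant CENP-A, on which a constitutive network of CENP proteins is built. This network recruits the KMN network (KNL1, the MIS12 complex and the NDC80 complex), whose NDC80 complex grips microtubules, while BUB, MAD and TTK proteins delay anaphase until every kinetochore is attached. Many of these genes are transcribed late in the cell cycle, and their promoters are known for CCAAT boxes and for the cell cycle genes homology region, an element near the start of transcription. MYC binds DNA as a dimer with MAX, preferentially at E-boxes in open promoters.

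A MYC summit was assigned to 35 of the 41 genes (85.4%, Wilson 95% interval 71.6 to 93.1, counting error only), beside 47.7% of all protein-coding genes. The same 35 had a summit within 1000 bp of an annotated gene end, beside 37.6% of all genes. Of the 34 members with a start in the RefSeq promoter table (GRCh38.p14), 29 had a summit within 1000 bp of that start, beside 39.6% of the genes in that table. The genes without an assigned summit were CENPI, CENPK, CENPW, SPC25, TTK and SKA1. The heights of these peaks were close to those at other genes. The strongest peak of a member, by the authors' −log10 q, had a median fold over control of 9.73 (range 3.10 to 38.3, n = 35 genes), beside a median of 8.56 over the 9520 protein-coding genes with an assigned summit. Of the 35 members, 22 lay above that median and 13 below it, and 16 (45.7%) had a fold of 10 or more, beside 39.2% of all genes with a summit.

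The following promoters are shown because the first 4 have a summit near the start, with and without E-box letters, and the fifth belongs to a gene with no assigned summit. Each is the 250 bases upstream of the RefSeq start, read toward the gene (GRCh38.p14), and overlaps no other annotated gene. Capitals mark CACGTG (the canonical E-box), CACGCG or its reverse complement CGCGTG (an E-box variant), CCAAT or ATTGG, and TTTGAA or TTCAAA, and also TTCGAA (forms of the cell cycle genes homology region). CENPF (chr1:214602945-214603194, plus strand) had its summit 183 bp upstream of the start, CENPE (chr4:103198344-103198593, minus strand) 138 bp upstream, DSN1 (chr20:36773764-36774013, minus strand) 89 bp upstream and CENPA (chr2:26785806-26786055, plus strand) 20 bp downstream. The nearest summit to CENPW (chr6:126339865-126340114, plus strand) lay 353534 bp from the gene.
CENPF: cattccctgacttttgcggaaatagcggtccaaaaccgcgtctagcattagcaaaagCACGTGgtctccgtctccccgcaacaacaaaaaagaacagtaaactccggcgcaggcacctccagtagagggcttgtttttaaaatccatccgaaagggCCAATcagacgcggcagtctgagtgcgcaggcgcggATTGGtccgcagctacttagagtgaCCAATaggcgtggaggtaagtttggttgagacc
CENPE: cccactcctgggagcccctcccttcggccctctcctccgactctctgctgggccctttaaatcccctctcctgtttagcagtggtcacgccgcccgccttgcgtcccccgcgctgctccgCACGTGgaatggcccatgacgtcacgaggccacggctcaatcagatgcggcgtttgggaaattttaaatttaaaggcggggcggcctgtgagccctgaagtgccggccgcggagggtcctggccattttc
DSN1: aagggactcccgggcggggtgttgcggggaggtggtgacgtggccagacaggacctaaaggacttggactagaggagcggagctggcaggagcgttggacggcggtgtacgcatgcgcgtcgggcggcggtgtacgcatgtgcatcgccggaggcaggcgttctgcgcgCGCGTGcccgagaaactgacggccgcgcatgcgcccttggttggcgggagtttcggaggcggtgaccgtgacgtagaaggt
CENPA: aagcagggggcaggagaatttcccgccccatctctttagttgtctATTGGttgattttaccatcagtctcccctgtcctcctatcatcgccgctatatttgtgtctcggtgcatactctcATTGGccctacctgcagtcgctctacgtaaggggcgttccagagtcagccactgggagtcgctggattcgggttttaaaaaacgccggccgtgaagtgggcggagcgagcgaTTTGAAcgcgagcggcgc
CENPW: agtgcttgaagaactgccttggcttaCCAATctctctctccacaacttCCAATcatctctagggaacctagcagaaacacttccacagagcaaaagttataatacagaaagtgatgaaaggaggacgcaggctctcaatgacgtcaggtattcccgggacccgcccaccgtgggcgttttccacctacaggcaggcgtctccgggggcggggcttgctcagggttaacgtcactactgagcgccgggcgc

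In CENPF and CENPE the centre of the E-box lay 7 and 11 bp from the summit, and in DSN1 the variant lay 11 bp from it. In CENPA no E-box letters were found in the window, although the gene had a peak. CACGTG was present in the 300 bases around the start (250 before, 50 after) of 4 of 34 members, CENPE, CENPF, CENPP and CENPS. That share of 11.8% stood beside 8.87% of 15812 protein-coding promoters. Among promoters with a summit within 1000 bp of the start, it was 13.8% of 29 members, beside 12.6% of all 6261. The E-boxes of CENPP and CENPS lay 301 and 237 bp from the nearest summit. Over all 791 promoters with CACGTG and a summit, 32.5% had the E-box within 20 bp of a summit. CACGCG, searched on both strands as were all of these motifs, stood in 3 of 34 members (CENPO, CENPU and DSN1), a share of 8.82% beside 14.8% of all promoters. Among promoters with a summit at the start, it stood in 10.3% of the 29 members, beside 21.3% of all. Unlike in DSN1, this variant lay 200 bp from the nearest summit in CENPO, and 202 and 208 bp from it in CENPU. The 5 members in the table with no summit at the start held neither form.

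Either E-box form was present in 7 of 34 members (20.6%), and in 3472 of all 15812 promoters. Among promoters with a summit at the start it was present in 24.1% of the 29 members, beside 31.2% of all. The letters of late cell cycle promoters were present in a larger share of members than of all genes. CCAAT was found in 18 of 34 members (52.9%), beside 36.3% of all promoters. TTTGAA was found in 13 of 34 (38.2%), beside 12.1% of all promoters. Among promoters with a summit at the start, it was found in 37.9% of the 29 members, beside 8.75% of all. Within 50 bases on each side of the start, a window chosen after the positions were seen, TTTGAA was present in 11 of 34 members and in 3.26% of all promoters. Those 11 were BUB1B, CENPA, CENPF, CENPN, CENPO, MAD2L1, NDC80, NUF2, SKA1, SKA3 and SPC25, so that SKA1 and SPC25 had these letters without a summit. TTCGAA stood in the same window of BUB1, NDC80 and CENPW, 8.82% of members, beside 0.398% of all promoters. No 2 different motifs overlapped in a member promoter, and a match gives letters only, not a bound site. Median GC content was 61.8% in members and 62.7% over all promoters. It was 62.3% in the 29 members with a summit at the start, beside 66.0% over all promoters with one. In the 5 members without, it was 55.3%, and of these CENPI (37.7%) has its listed start inside the annotated gene.

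**Figure D1:**
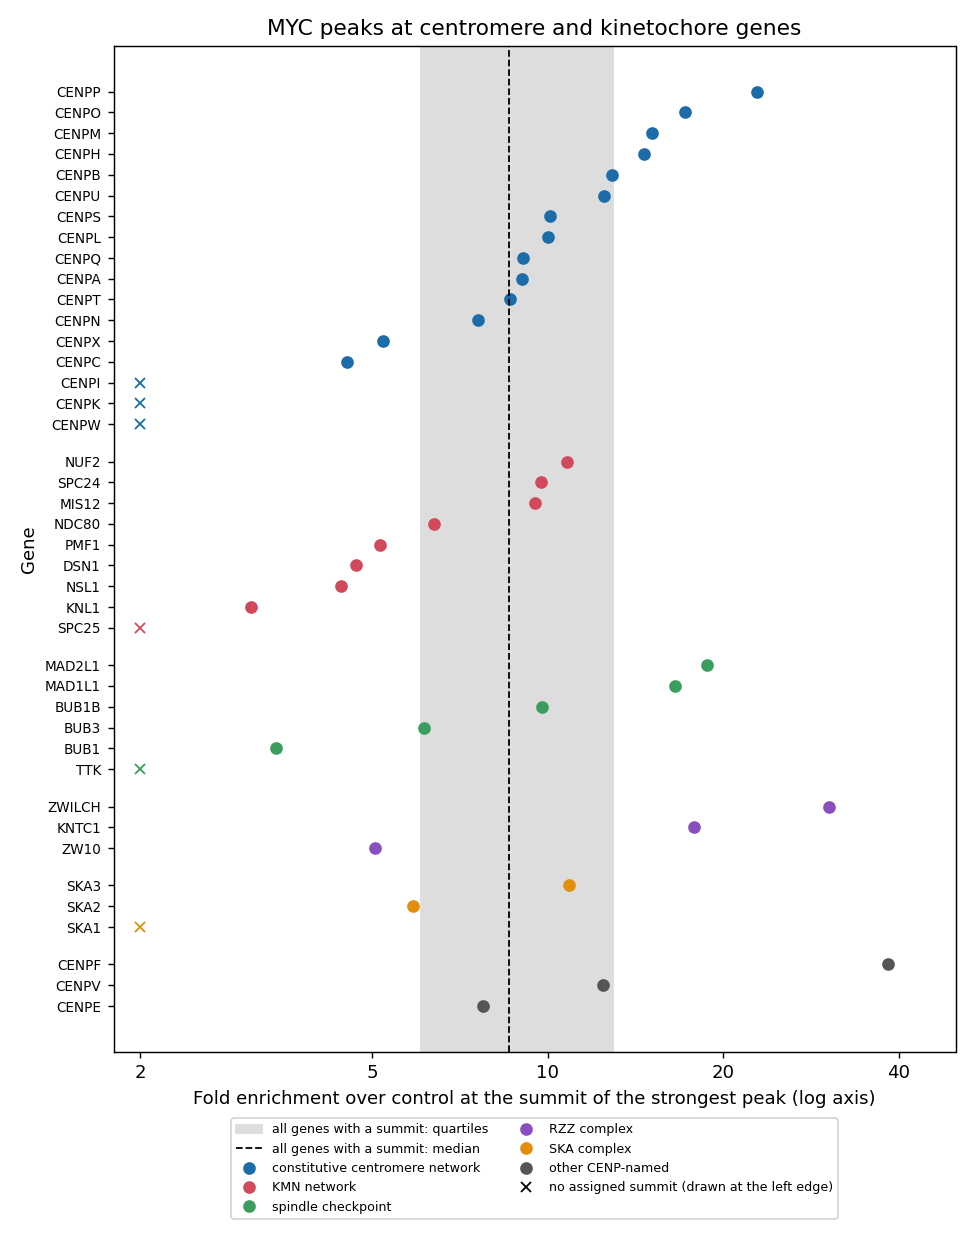
Fold enrichment over control at the summit of the strongest assigned peak (log axis) for each of the 41 genes, by role, with crosses at the left edge for the 6 genes without a summit. The dashed line is the median of all protein-coding genes with a summit (8.56) and the grey band their quartiles (6.07 to 13.0). CENPF at 38.3 and ZWILCH at 30.3 are the highest, and KNL1 at 3.10 the lowest.

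Among the 17 genes of centromere chromatin and the constitutive network, 14 had a summit, with a median fold of 10.0. CENPP had the highest fold, 22.8 (−log10 q of 334, chromosome 9, 92324954 to 92326177), with the summit 190 bp inside the gene, and a further peak of fold 13.3 lay 181107 bp from its start. CENPO, its partner in the CENP-O subcomplex, had a fold of 17.2, and CENPU and CENPQ of the same subcomplex had 12.5 and 9.05. This subcomplex therefore spanned 9.05 to 22.8 with a peak at each of these 4 genes.

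The CENP-H, I, K and M proteins form another subcomplex, and here the genes differed in whether a peak was listed. CENPM had a fold of 15.1 and CENPH one of 14.6. CENPI and CENPK had none, with nearest summits 46301 and 61826 bp away. Of the histone-fold proteins, CENPT had a fold of 8.61, CENPS 10.1 and CENPX 5.22, while CENPW, the direct partner of CENPT, had no summit. CENPL (10.0) and CENPN (7.60), whose proteins bind the CENP-A nucleosome together, both had a summit. CENPA, which encodes the centromeric histone itself, had a fold of 9.03 with its summit 20 bp inside the gene, and CENPB, which binds a box in alpha satellite DNA, had 12.9. CENPC, the scaffold that links CENP-A to the outer kinetochore, was the lowest of the network with a summit, at 4.52.

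The KMN genes had a summit at 8 of 9 genes, with a median fold of 5.76. Within the NDC80 complex, NUF2 had a fold of 10.8, SPC24 9.73 and NDC80 6.37, whereas the nearest summit to SPC25 lay 404804 bp away. A further peak of fold 8.09 lay 2712 bp beyond the other end of SPC24. NDC80 had the highest −log10 q of the 8, at 117, despite that lower fold. The 4 genes of the MIS12 complex, which connects to CENP-C, all had a summit. MIS12 stood at 9.49, ahead of PMF1 at 5.16, DSN1 at 4.69 and NSL1 at 4.42. KNL1, the scaffold for BUB proteins, had the lowest fold of all members with a peak, 3.10, and the lowest −log10 q, 9.98, with the summit 81 bp inside an annotated end.

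Of the 6 checkpoint genes 5 had a summit, with folds from 3.41 to 18.7. MAD2L1, which encodes the inhibitor of CDC20, had a fold of 18.7 (−log10 q of 166, chromosome 4, 120066128 to 120067551), and BUB1B, the BubR1 pseudokinase gene, had 9.77. BUB3, their WD40 partner, stood at 6.14 and the kinase gene BUB1 at 3.41, while TTK, the kinase that starts the checkpoint, had its nearest summit 64121 bp away. MAD1L1, the recruiter of MAD2, was the only member with 3 peaks, and at 417151 bp it was also the longest gene of the set (median 29738 bp). Its strongest, with a fold of 16.5, lay 57233 bp inside the gene, another of fold 7.82 lay 128518 bp inside, and the peak 40 bp from its start had a fold of 4.17. Whether the 2 inner sites are exonic, intronic or promoters of shorter transcripts was not analysed here.

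The RZZ complex, which brings dynein and MAD1 to unattached kinetochores, had a summit at each of its 3 genes. ZWILCH had a fold of 30.3 (−log10 q of 525, chromosome 15, 66504207 to 66505624), KNTC1, which encodes ROD, 17.8 and ZW10 5.06. The ZWILCH and KNTC1 summits lay nearer the end of a neighbouring gene, RPL4 and RSRC2, than their own. In the SKA complex, which holds kinetochores on moving microtubule ends, SKA3 had 10.9, and the nearest summit to SKA1 lay 93432 bp away. SKA2 had a peak at its start with a fold of 6.14, but its strongest peak by −log10 q (81.0, against 75.7) lay 2780 bp beyond its other end, with a fold of 5.86. That was the assigned summit farthest outside any member, and the nearest one beyond the 5000 bp limit lay 7513 bp from ZWILCH, with a fold of 7.79.

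Of the other CENP-named genes, CENPF, which encodes a large microtubule-binding protein of the outer corona, had the highest fold and −log10 q of all 41. Its peak (chromosome 1, 214602488 to 214603655) reached a fold of 38.3, rank 110 among the 9818 peaks, and its −log10 q of 542 ranked 118. CENPE, the kinetochore kinesin, had a fold of 7.73 and CENPV one of 12.4. After CENPF and ZWILCH, the next highest fold was that of CENPP.

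**Figure D2:**
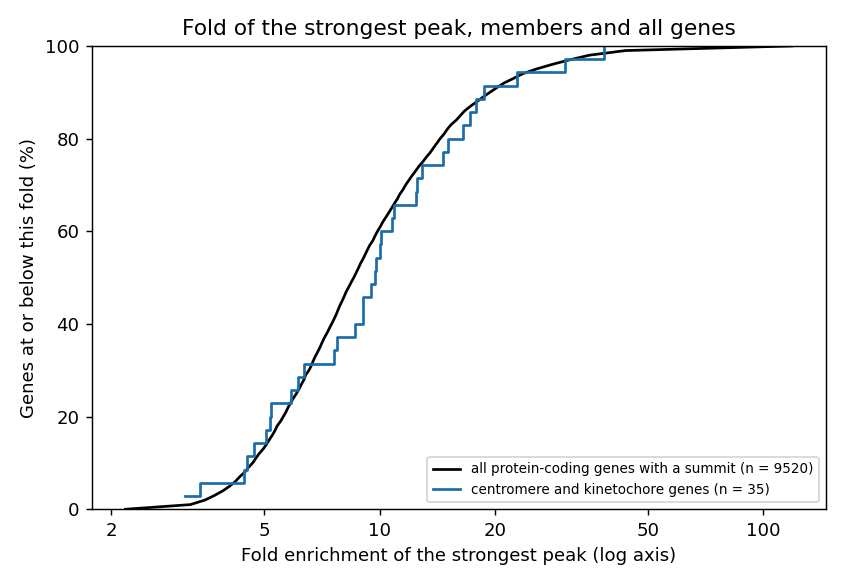
Share of genes (%) at or below each fold of the strongest assigned peak (log axis), for the 35 centromere and kinetochore genes with a summit and all 9520 protein-coding genes with one. The curves run close together, with medians of 9.73 and 8.56.

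For the 29 members with a summit within 1000 bp of the RefSeq start, the nearest summit lay a median of 164 bp from it, beside 152 bp over all 6261 such genes. Of their strongest peaks, 11 of 29 (37.9%) lay within 100 bp of the start, beside 36.6% of those genes, and 21 (72.4%) within 300 bp, beside 68.9%. The strongest summit was upstream of the start in 18 (62.1%), beside 51.6%. The strongest peaks of MAD1L1 and SKA2 were the 2 beyond 1000 bp. CENPS, CENPO, SPC24 and CENPC were nearest, at 5, 6, 7 and 13 bp, although their folds ran from 4.52 to 17.2. Peaks of members had a median width of 892 bp, beside 821 bp for all genes with a summit.

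**Figure D3:**
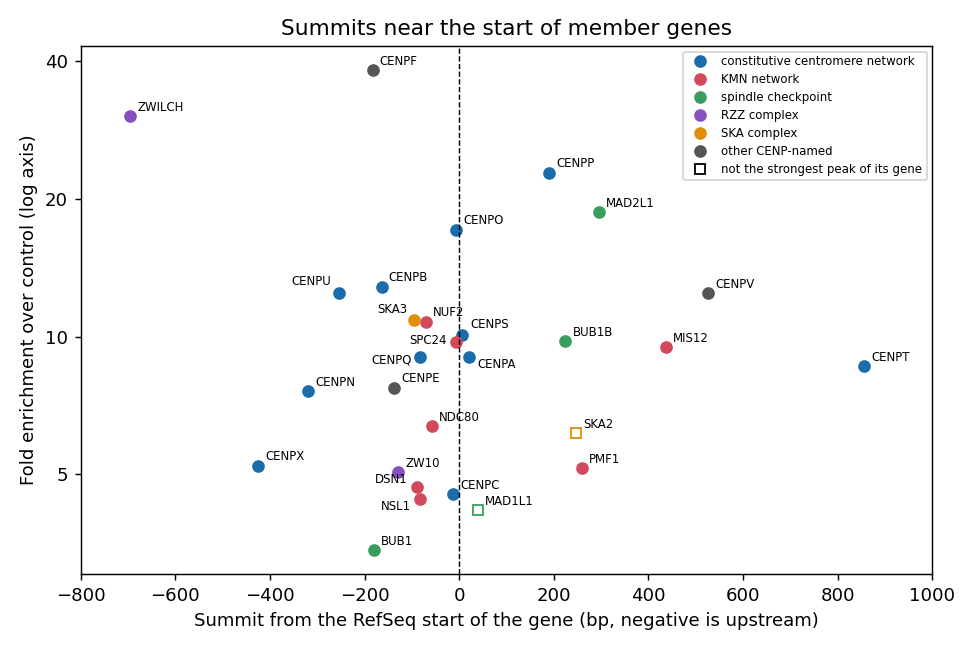
Position of each summit within 1000 bp of the RefSeq start (bp, negative is upstream) against its fold (log axis), for the 29 members with a summit there. Open squares are start peaks of MAD1L1 and SKA2, whose strongest peak by −log10 q lies elsewhere, and ZWILCH stands farthest upstream at 696 bp.

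An end of another protein-coding gene was within 1000 bp of the strongest summit for 18 of 35 members (51.4%), beside 33.3% of all genes with a summit, read-through loci left out. In 15 of them that summit was within 1000 bp of the RefSeq start of the neighbour. For 12 of the 35 (34.3%) the end of the neighbour was nearer to the summit than the member's own, beside 21.2% over all genes. The strongest peak was also the strongest assigned peak of another protein-coding gene for 18 members, beside 41.2% of all genes with a summit, and for 1 of the 18, CENPS, that gene was only its own read-through locus, CENPS-CORT.

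The ZWILCH summit lay 696 bp upstream of ZWILCH and 225 bp from RPL4, a ribosomal protein gene, and was also the strongest assigned to RPL4. Positions alone do not tell to which of these genes its fold of 30.3 belongs. KNTC1 shared its summit with RSRC2 (519 and 206 bp). The CENPP summit lay 190 bp inside CENPP and 308 bp from NOL8, a nucleolar protein gene, and was not the strongest assigned to NOL8. SKA3 lay opposite MRPL57, a mitochondrial ribosomal protein gene, with the summit 95 bp from SKA3 and 11 bp from MRPL57.

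The summit of CENPB lay 47 bp from CDC25B, a mitotic phosphatase gene, and 164 bp from CENPB. That of CENPT lay 95 bp from NUTF2, a nuclear transport factor gene, and the further peak inside CENPT, with a fold of 11.0, lay 103 bp from THAP11. The strongest peak of SKA2 lay 197 bp from TRIM37. The pairs CENPX and LRRC45 (425 and 2 bp), MIS12 and DERL2 (436 and 7 bp), CENPN and CMC2 (320 and 9 bp) and NDC80 and METTL4 (58 and 6 bp) had the summit almost on the neighbour's end. In CENPQ and MMUT, as in NSL1 and TATDN3, the distances were 82 and 35 bp. CENPO and PTRHD1 (6 and 28 bp), CENPM and SMIM45 (6 and 209 bp), NUF2 and RGS5 (70 and 149 bp) and PMF1 and SLC25A44 (259 and 470 bp) had it nearer the member. For CENPM and PMF1 no RefSeq start of the neighbour lay within 1000 bp of the summit, and the strongest SKA2 summit lay 48109 bp from the SKA2 start, near the start of TRIM37. Where the starts of both genes lay within 1000 bp, the list alone does not tell the 2 promoters apart.

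**Figure D4:**
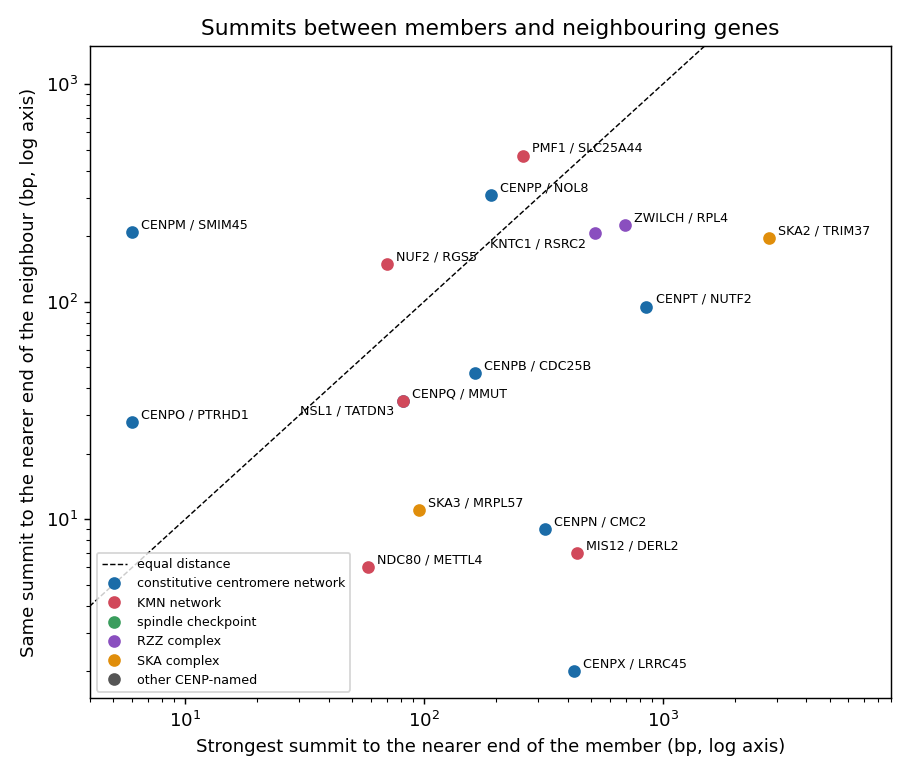
Distance (bp, log axes) from the strongest summit to the nearer end of the member and to that of the neighbouring protein-coding gene, for 17 of the 18 members with such an end within 1000 bp. The 12 points below the dashed line of equal distance have the summit nearer the neighbour, and the points of CENPQ and NSL1 coincide.

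CENPF, MAD2L1, MAD1L1, CENPU, CENPH, BUB1B, CENPE, CENPV, CENPC, ZW10, BUB1, DSN1, SPC24 and KNL1 had no such neighbour at the strongest summit and no shared strongest peak. Their folds covered the whole range of the set, from 3.10 to 38.3. For CENPA and BUB3 the peak was also the strongest assigned to SLC35F6 and HMX2, whose ends lay more than 1000 bp from the summit.

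Of 38 other genes of the centromere, kinetochore, chromosomal passenger and anaphase-promoting machinery, 36 had an assigned summit, beside the 47.7% of all protein-coding genes, with a median fold of 9.93 beside the 8.56 of all genes with a summit. These included all 4 of the chromosomal passenger complex and 13 of 14 of the anaphase-promoting complex. Among those with the highest −log10 q were BIRC5, which encodes survivin (fold 27.3), TRIP13, the ATPase that remodels MAD2 (26.5), ANAPC10 (26.5) and ITGB3BP, which encodes CENP-R (14.4). TRIP13, ANAPC10 and ITGB3BP shared their peaks with BRD9, ABCE1 and EFCAB7, and ITGB3BP had no summit within 1000 bp of either end. HJURP, the chaperone that deposits the CENP-A protein, had 3.55, and NEK2 and CDC23 had no assigned summit.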

How the data were processed

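MYC ChIP-Rx was analysed from the deposited peak list alone. Per the submitters' processing notes, the tools were MACS2, Picard, Bowtie2, cutadapt and SAMtools, with builds hg38, hg19 and mm10. Versions, the scaling by mouse reads and whether the 2 IP libraries were pooled are not stated in them and not given in the sources used here. The name of the list gives hg38. The values are the authors' fold enrichment over control at the summit, a linear ratio, and the authors' −log10 q-value, both by the narrowPeak layout, since the list has no header. Coordinates are 1-based.

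Genes, starts and promoters came from RefSeq tables on GRCh38.p14, with 34 of 41 members in the promoter table. CENPH, CENPL, CENPM, BUB3, KNL1, KNTC1 and TTK were not in it. Assignment was computed in Python 3.11.15 with pandas 2.3.3 and checked on made-up genes. The strongest peak of a gene has the highest −log10 q, ties settled by fold. No set test was run: members are counted beside all protein-coding genes, which are not independent replicates. A read-through locus is a symbol that begins with the member's symbol and a hyphen. Every member is named, with neighbours within 1000 bp of a summit and the 5 strongest other pathway genes, except that 2 of these genes are not reported here. The members and lists were chosen with earlier results of these data known.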

Additional observations from a re-analysis of the deposited data

How the results depend on the processing

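Beside the 35 members with an assigned summit, the count was also 35 with 1000 bp allowed outside the gene (of all genes 44.1%). It was 35 with any base of the peak (of all genes 47.9%). With a −log10 q of at least 10 it was 34 (of all genes 47.2%), where KNL1 was lost. It was 23 (of all genes 27.7%) in the stronger 50% of peaks, where 22 members had a summit at a gene end (of all genes 21.3%). Counting summits inside the gene alone left 13 of the 41 members (of all genes 25.9%), so the share of members was then much nearer that of all genes. It left 21 of the 36 other pathway genes. By definition this setting drops every summit outside a gene, on either side. Of those 13 members, 3 shared their strongest peak, beside 9.58% of all genes with a summit inside. Counting a peak only for its nearest protein-coding gene end left 24 members (of all genes 38.2%). The genes lost were CENPB, CENPN, CENPQ, CENPT, CENPX, KNTC1, MIS12, NDC80, NSL1, SKA3 and ZWILCH. The median fold ranged from 9.73 to 10.9 over its alternatives, which reuse the same peak list. Its 95% interval of 7.60 to 12.4 is over the 35 genes and is not a replicate error. In the stronger 50% of peaks that 10.9 stood beside a higher median of 11.8 over all genes. Under the other settings each count was within 1.5 times of the one reported. Replicates could not be left out and depth could not be weighed, because the list holds no value per library.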
